A study of Rattus norvegicus with 14 samples.

Results

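Ketohexokinase (Khk), the aldo-keto reductases Akr1b1 and Akr1a1, and the glycerol phosphate dehydrogenases Gpd1 and Gpd2 were followed on arrays of rat small intestine. These 5 genes were taken by their symbols in the platform annotation. They account for 6 of the 4952 probes, because Gpd2 has 2 probes and the others have 1, and for 5 of the 4682 features left once probes of a gene had been averaged.

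The rats were aged 20 days (the unit is written for arrays 1 to 5 alone), and their small intestine had been perfused with HG or HF. These letters are not spelled out, and their reading as glucose and fructose at high concentration comes from what is known of the study. The sources used here name no strain, sex or number of animals per RNA. Each of the 14 arrays has 2 channels and gives, for each probe, the logarithm of the ratio between them. At 4 h of perfusion 5 arrays set numbered HG samples against the HF samples of the same number, and array 6 repeated pair 2. At 20 min there were 4 such arrays. Another 3 arrays carried 1 RNA in both channels, all of 4 h perfusion (1HG, 3HG and 3HF), and 1 array carried primers of a labelling kit alone. Perfused and unperfused intestine were not compared, so HF raising a gene and HG lowering it would give the same ratio. Whether the numbered samples came from separate animals is not stated, so a p-value reflects how much these arrays vary, which may be technical.

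Fructose is taken up by enterocytes through the transporter GLUT5 and phosphorylated by ketohexokinase, and aldolase then splits the product into dihydroxyacetone phosphate and glyceraldehyde. Cytosolic glycerol phosphate dehydrogenase (Gpd1) reduces dihydroxyacetone phosphate to glycerol phosphate with NADH. Glycerol phosphate is the backbone of triglycerides, which enterocytes build and export, and the mitochondrial enzyme Gpd2 can oxidise it back and pass the electrons to the respiratory chain. In the polyol path aldose reductase (Akr1b1) reduces glucose to sorbitol, which sorbitol dehydrogenase converts to fructose, and the related aldehyde reductase Akr1a1 reduces a wide range of aldehydes.

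A ratio is given below on the log2 scale after each array was centred on its median, and base 2 is an assumption. The sources used here do not state the direction of the ratio. Positive values are taken as the HF side, which is likely but not certain, on 2 grounds. In the title of array 6 a 5 follows HG and a 3 follows HF, which may stand for the dyes Cy5 and Cy3 and for a swap of them. Slc2a5, the GLUT5 gene, known to be induced by fructose, had a mean ratio of 1.65 ± 0.25 (SD, n = 5) on arrays 1 to 5 and of -1.66 on array 6. The labels place HG and HF in the same channels on array 6 as on the others, so the swap is an inference. Over all features the ratios on array 6 correlated positively with those on array 2 (r = 0.41), so they did not reverse as a whole, as that of Slc2a5 did. A swap would turn the sign of a difference between the RNAs but not that of a dye effect of the probe. Both enter these ratios, so the correlation cannot show whether the dyes were swapped. Array 6 stayed out of the tests and is given beside them.

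The arrays differed in quality. The SD over all probes was 0.33 to 0.40 on the 9 arrays of HG against HF that entered the tests. It was 0.82 on array 6 and 1.39 on the same-RNA array 1HG, where 227 probes lay beyond 2, of which 147 had probe numbers up to 750. Of the 70 genes on 8 cell type marker lists (enterocyte, smooth muscle, enteric neuron and glia, leukocyte, red blood cell, exocrine pancreas, liver, goblet and Paneth), 0 passed in any of the 3 comparisons by limma's test at a Benjamini-Hochberg adjusted p below 0.05. Of all features 0.0641% passed at 4 h and 0.0427% at 20 min against the same-RNA arrays, and 0.598% between the times. A count of 0 therefore does not set the marker genes apart. At an unadjusted p below 0.05 there were 7, 3 and 7 in these comparisons, beside 9.97%, 5.21% and 13.5% of all features. In 0 of the 8 lists did the mean ratio of an array set the 4 h arrays apart from the 20 min arrays. Some lists leaned 1 way between the times, where 48.0% of all features were higher at 4 h. Higher were 5 of 5 red blood cell genes (median 0.21), 5 of 6 goblet and Paneth genes (0.28) and 6 of 8 leukocyte genes (0.045). Lower were 8 of 9 liver genes (-0.14), 4 of 5 smooth muscle genes (-0.11) and 8 of 13 enterocyte genes (-0.19). Of the enterocyte genes 3 had an unadjusted p below 0.05, all lower at 4 h: Fabp2, Apoa1 and Apoa4, with differences of -0.50, -0.44 and -0.39. Their part in the results below was not tested. Ratios give no level of a gene, so the labelled tissue could not be checked against the 13 enterocyte genes measured.

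Gpd1 was the enzyme of this group with the clearest pattern: its ratio lay on the HF side on each of arrays 1 to 5 at 4 h, and near or below 0 at 20 min. On arrays 1 to 5 the ratios of Gpd1 were 0.51, 0.58, 0.75, 0.32 and 0.47. At 20 min they were 0.067, -0.11, -0.31 and -0.089, and on the same-RNA arrays 1HG, 3HG and 3HF they were 0.12, -0.080 and 0.15. Each of arrays 1 to 5 was therefore above every 20 min and same-RNA array, while the 20 min and same-RNA arrays overlapped. On array 6 the ratio was -0.54, the opposite sign of the 0.58 on array 2 with the same pair of RNAs. On the primer array it was -0.0010.

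**Figure D1:**
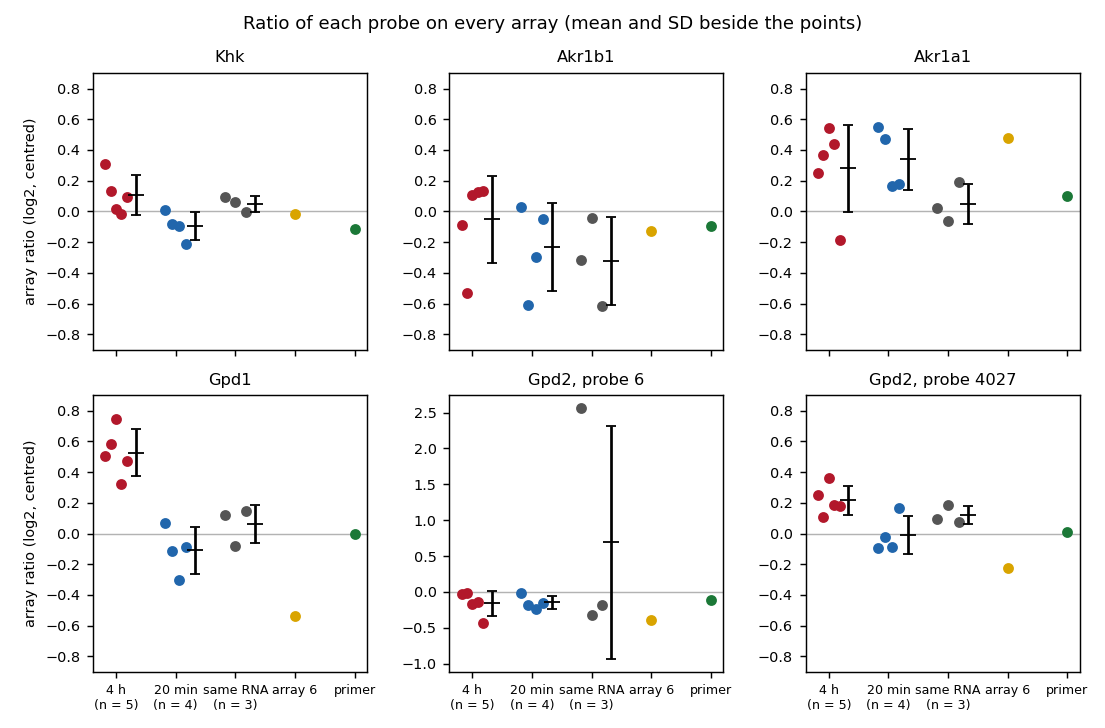
Centred log2 ratio (vertical axis) of each of the 6 probes on every array, with the 4 h arrays in red, 20 min in blue, same RNA in grey, array 6 in yellow and the primer array in green; black marks are the mean and SD of a group, and the panel of Gpd2 probe 6 has its own scale. Gpd1 lies between 0.32 and 0.75 on the 5 arrays at 4 h and at -0.54 on array 6, and Gpd2 probe 6 reaches 2.56 on the same-RNA array 1HG.

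Between the times the ratio of Gpd1 was higher at 4 h by 0.64 ± 0.11 (SE; 1.55-fold; 95% confidence interval 0.40 to 0.87; limma adjusted p = 0.0297), from means of 0.53 ± 0.15 (SD, n = 5) at 4 h and -0.11 ± 0.15 (n = 4) at 20 min. It ranked at place 12 of 4682 features by p. Of the 5 genes, Gpd1 alone was called here, where 0.598% of all features were called. The arrays of the 2 times did not overlap for Gpd1 alone among the 5, against 6.54% of all features. The comparison assumes that the ratio runs the same way at both times, since no array at 20 min was repeated.

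The call was near the threshold. The difference lay between 0.57 and 0.70 when 1 of the 12 arrays was left out, and the call held in 5 of these 12 fits. It was lost without 4 h replicate 1 (adjusted p = 0.0663), 2 (0.0679) or 3 (0.0516), without 20 min replicate 2 (0.103), 3 (0.109) or 4 (0.0857), and without the same-RNA array 3HF (0.0511), which enters only through the estimate of the spread. Averaging array 6 with array 2 as deposited gave a difference of 0.52 and an adjusted p of 0.253. Turning its sign first gave 0.63 and 0.0359. With the number of the samples as a block the difference was 0.65 and the limma adjusted p 0.122, so the call was lost. Whether the numbers pair the samples is not known.

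**Figure D2:**
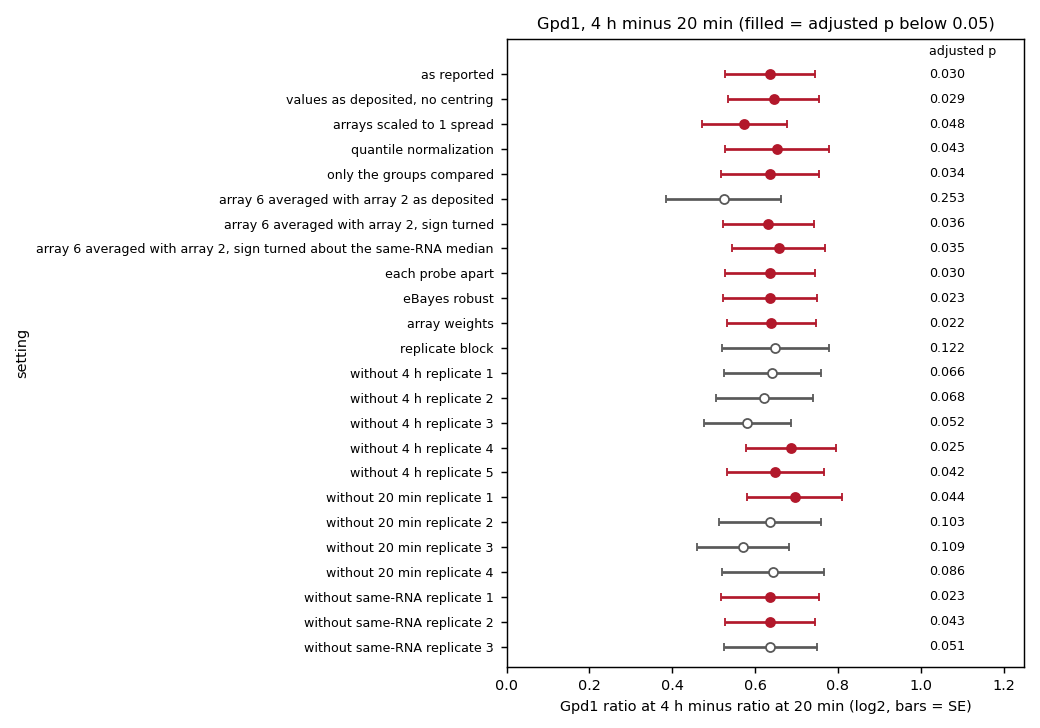
Difference in the log2 ratio of Gpd1 between 4 h and 20 min (horizontal axis, bars are SE) under each setting (vertical axis), with the limma adjusted p at the right; filled red points passed 0.05. The difference stays between 0.52 and 0.70 in every setting shown, and the adjusted p runs from 0.0219 to 0.253.

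Against the same-RNA arrays, which carry the dye effect of each probe, Gpd1 differed at 4 h by 0.46 ± 0.12 (SE; 1.38-fold; 95% confidence interval 0.21 to 0.72) with an unadjusted p of 0.00204 and a limma adjusted p of 0.236. It did not pass, nor did any of the other 4 genes, and 0.0641% of all features did. Gpd1 was the 1 gene of the 5 with an unadjusted p below 0.05, which 9.97% of all features reached, and the 1 gene whose 4 h arrays did not overlap the same-RNA arrays, as for 6.71% of all features. At 20 min the difference of Gpd1 was -0.17 ± 0.12 (95% confidence interval -0.44 to 0.095; limma adjusted p = 0.871). The 4 h and 20 min differences share the same-RNA arrays as their control.

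Gpd2, the mitochondrial partner of Gpd1, gave 2 different readings. Probe 4027 had ratios of 0.25, 0.11, 0.36, 0.18 and 0.18 on arrays 1 to 5, and of -0.098, -0.025, -0.091 and 0.17 at 20 min. On the same-RNA arrays it read 0.097, 0.19 and 0.076. The 5 arrays at 4 h were all above 0, and 3 of 4 at 20 min were below it, but the groups overlapped. With each probe tested apart, the ratio of probe 4027 was higher at 4 h than at 20 min by 0.23 ± 0.088 (SE; 95% confidence interval 0.036 to 0.42; limma adjusted p = 0.277), which did not pass. On array 6 it was -0.22, against 0.11 on array 2.

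Probe 6 of Gpd2 read -0.024, -0.015, -0.17, -0.14 and -0.44 at 4 h, and between -0.24 and -0.017 at 20 min, all below 0. On the same-RNA arrays it read 2.56, -0.32 and -0.18, so that array 1HG stood far from the other two. This probe number lies in the range in which 1HG held most of its extreme values. The mean of both probes differed from the same-RNA arrays by -0.38 ± 0.26 (SE; limma adjusted p = 0.589) at 4 h and by -0.48 ± 0.27 (adjusted p = 0.801) at 20 min. Without 1HG these differences were 0.088 and -0.020, so the size of both, and the sign at 4 h, rested on that 1 array. Between the times the mean of the probes differed by 0.11 ± 0.23 (SE; 95% confidence interval -0.40 to 0.62), and here 1HG enters through the estimate of the spread: without it the SE was 0.097 (limma adjusted p = 0.661).

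Khk, the kinase that commits fructose to breakdown, had small ratios. They were 0.31, 0.13, 0.015, -0.020 and 0.096 on arrays 1 to 5, and 0.0096, -0.084, -0.096 and -0.21 at 20 min. The same-RNA arrays gave 0.096, 0.059 and -0.0058. Array 1 was the highest at 4 h, and the groups overlapped. The mean was 0.11 ± 0.13 (SD, n = 5) at 4 h and -0.095 ± 0.090 (n = 4) at 20 min, and 17.3% and 15.6% of all features had a smaller SD in these groups. Khk was thus among the more even probes between replicates.

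Between the times the ratio of Khk was higher at 4 h by 0.20 ± 0.089 (SE; 1.15-fold; 95% confidence interval 0.0085 to 0.39), with an unadjusted p of 0.0421 and a limma adjusted p of 0.343, so it did not pass. Khk and Gpd1 were the 2 of the 5 genes with an unadjusted p below 0.05 here, a share to be read against 13.5% of all features. Without 4 h replicate 1 the difference of Khk was 0.15. Against the same-RNA arrays Khk differed by 0.057 at 4 h (95% confidence interval -0.15 to 0.27) and by -0.14 at 20 min (-0.36 to 0.075). The value at 4 h was 0.0062 without 4 h replicate 1, 0.088 without 4 h replicate 4 and 0.029 without the same-RNA array 3HF. On array 6 Khk read -0.015, and on the primer array -0.12.

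**Figure D3:**
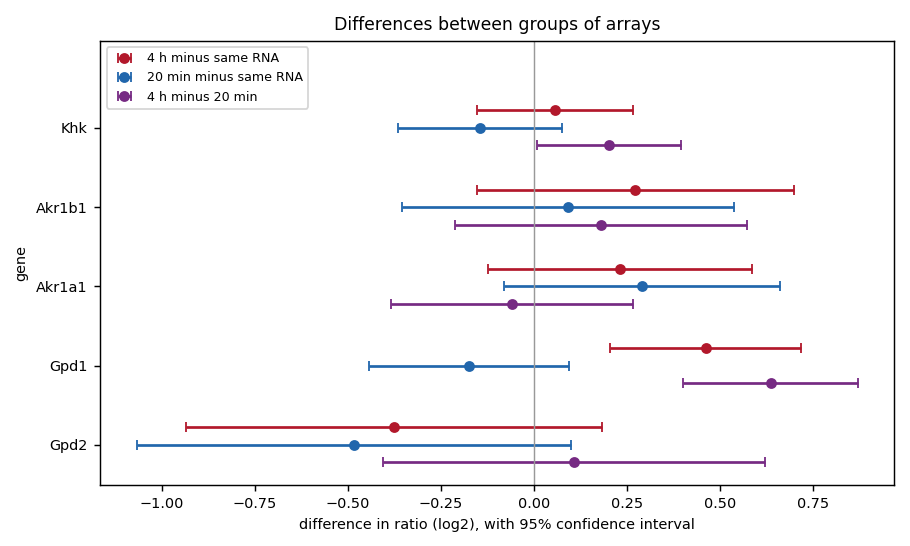
Difference in the log2 ratio between groups of arrays (horizontal axis, points, with the 95% confidence interval from limma) for the 5 genes (vertical axis) in the 3 comparisons. The interval of Gpd1 lies above 0 at 4 h against the same RNA (0.21 to 0.72) and between the times (0.40 to 0.87), that of Khk between the times starts at 0.0085, and the other 12 intervals include 0.

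Akr1b1, aldose reductase, varied more from array to array than most probes. At 4 h it read -0.090, -0.53, 0.11, 0.13 and 0.13, and at 20 min 0.030, -0.61, -0.30 and -0.052. The same-RNA arrays, on which no biological difference is present, read -0.32, -0.040 and -0.61. The SD of Akr1b1 was 0.28 at 4 h and 0.29 at 20 min and on the same-RNA arrays, against medians of 0.20, 0.17 and 0.15 over all features. The ranges of all 3 groups overlapped widely, and a single array at or below -0.53 occurred in each.

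Accordingly the differences of Akr1b1 had wide intervals. It differed from the same-RNA arrays by 0.27 ± 0.20 (SE; 95% confidence interval -0.15 to 0.70; limma adjusted p = 0.616) at 4 h and by 0.091 ± 0.20 (-0.35 to 0.54; adjusted p = 0.986) at 20 min. Between the times the difference was 0.18 ± 0.18 (-0.21 to 0.57; adjusted p = 0.737), and it was 0.055 without 20 min replicate 2 and 0.30 without 4 h replicate 2. Without the same-RNA array 3HF the differences were 0.13 at 4 h and -0.053 at 20 min, and without 4 h replicate 2 the difference at 4 h was 0.39. Pair 2 read -0.53 on array 2 and -0.13 on array 6.

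Akr1a1, aldehyde reductase, lay on the positive side on 8 of the 9 arrays of HG against HF. It read 0.25, 0.37, 0.54, 0.44 and -0.19 on arrays 1 to 5, and 0.55, 0.47, 0.16 and 0.18 at 20 min. The same-RNA arrays gave 0.022, -0.063 and 0.19. Array 5 was the exception at 4 h, and the lowest 20 min arrays lay within the range of the same-RNA arrays. The difference from the same-RNA arrays was 0.23 ± 0.16 (SE; limma adjusted p = 0.602) at 4 h and 0.29 ± 0.17 (adjusted p = 0.801) at 20 min, and neither passed. Without 4 h replicate 5 the difference at 4 h was 0.35.

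Between the times Akr1a1 differed by -0.059 ± 0.15 (SE; 95% confidence interval -0.38 to 0.27; limma adjusted p = 0.928). Its ratio on array 6 was 0.48, of the same sign as the 0.37 on array 2, unlike that of Gpd1. Relative to the mean of the same-RNA arrays, Gpd1 and Khk had the opposite sign on array 6 from that on arrays 1 to 5, and the other 3 genes the same sign. Without the same-RNA array 1HG, an alternative chosen after the data had been seen, Gpd2 also had opposite signs (0.088 at 4 h and -0.25 on array 6). Over all features the sign was opposite in 45.2% with 1HG and in 46.5% without it.

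At 20 min none of the 5 genes was called against the same-RNA arrays, where 0.0427% of all features were. None had an unadjusted p below 0.05, which 5.21% of all features reached, and in each the 2 groups of arrays overlapped, whereas 7.01% of all features had groups apart. Differences of the 5 genes ran from -0.48 for Gpd2 to 0.29 for Akr1a1.

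The other genes of these paths were taken from 5 lists, with 47 genes measured besides the 5 enzymes. In limma's test 1 of the 47 was called at 4 h against the same RNA, 0 at 20 min and 2 between the times. Of all features 0.0641%, 0.0427% and 0.598% were called. Slc2a5, which was used to choose the HF side, was the 1 called at 4 h and 1 of the 2 between the times. At an unadjusted p below 0.05 the counts were 13, 1 and 16, beside 9.97%, 5.21% and 13.5% of all features. The 2 groups of arrays did not overlap for 9, 2 and 6 of the 47, beside 6.71%, 7.01% and 6.54% of all features. The lists are described by these counts and by medians, which over all features were -0.0082, 0.0022 and -0.0084.

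Glycerol phosphate and glyceride synthesis, the paths that Gpd1 feeds, had 8 other genes measured. Between the times 6 were higher and 2 lower at 4 h, with a median of 0.053, and 0 were called. Aqp3, a channel for water and glycerol, differed by 0.44 ± 0.15 (SE; limma adjusted p = 0.209), and Dgat1, which adds the last acyl chain of triglycerides, by 0.33 ± 0.14 (adjusted p = 0.314). Gnpat, an acyltransferase of ether lipid synthesis, differed by 0.18. At 4 h against the same RNA the genes with the smallest p were Aqp3 (difference 0.44), Dgat1 (0.37) and Gk, which encodes glycerol kinase (0.31), all with an adjusted p of at least 0.398. The arrays of Aqp3 and Dgat1 at 4 h did not overlap the same-RNA arrays, as for 6.71% of all features. Gpam, which acylates glycerol phosphate, differed by 0.00097 between the times. Against the same RNA it differed by -0.29 both at 4 h and at 20 min. Its mean ratio was 0.012 at 4 h, 0.011 at 20 min and 0.30 on the same-RNA arrays. Gk likewise differed by 0.26 at 20 min against the same RNA, with mean ratios of 0.027, -0.025 and -0.28 in these groups.

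The NADH shuttle list, to which Gpd1 and Gpd2 belong, had 7 other genes measured. Their median difference between the times was 0.31, with 5 higher and 2 lower at 4 h, 4 at an unadjusted p below 0.05 and 0 called. Ldhb, a lactate dehydrogenase, differed by 0.38 ± 0.11 (SE; limma adjusted p = 0.163). Mdh1 and Got1, the cytosolic enzymes of the malate-aspartate shuttle, differed by 0.31 ± 0.12 (adjusted p = 0.265) and 0.35 ± 0.14 (adjusted p = 0.289). The mitochondrial partner of Got1, Got2, had a difference of -0.35 ± 0.20 (adjusted p = 0.493). At 4 h against the same RNA 6 of the 7 were higher, with a median of 0.16. Ldhb differed there by 0.64 ± 0.12 (SE; limma adjusted p = 0.128), more than Gpd1 (0.46, adjusted p = 0.236). Got1 differed by 0.41 ± 0.15 (adjusted p = 0.409), and Got2 was lower, by -0.27 (adjusted p = 0.659). None of these passed. The 4 h arrays of Ldhb and Got1 did not overlap the same-RNA arrays, as for 6.71% of all features. At 20 min against the same RNA 5 of the 7 were higher, with a median of 0.082.

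**Figure D4:**
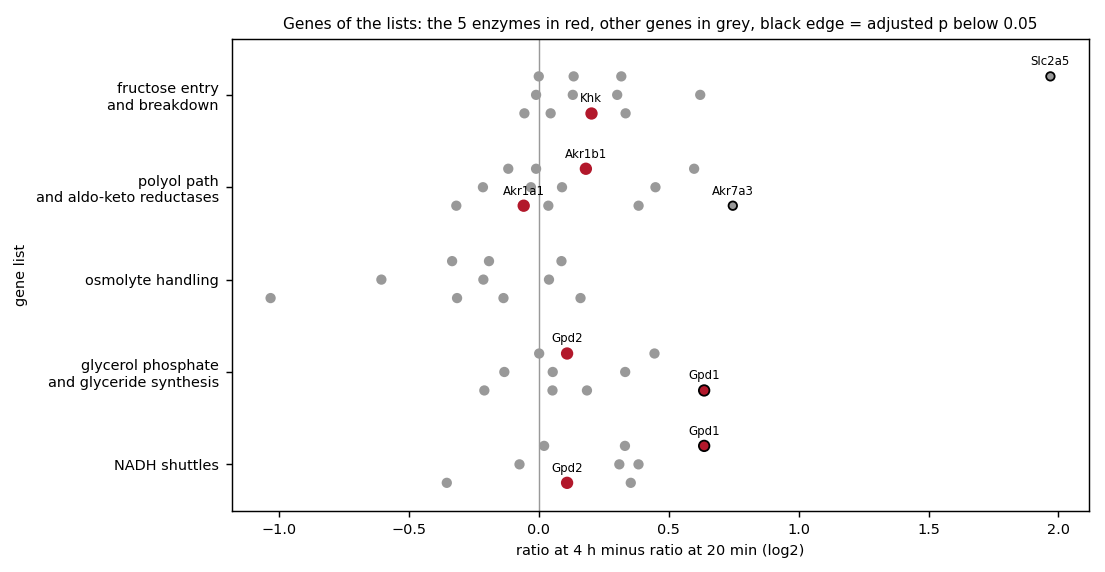
Difference in the log2 ratio between 4 h and 20 min (horizontal axis) for each measured gene of the 5 lists (vertical axis, points spread for legibility), with the 5 enzymes in red and other genes in grey; a black edge marks an adjusted p below 0.05. Gpd1 (0.64), Akr7a3 (0.75) and Slc2a5 (1.97) carry the edge, and Khk, Akr1b1, Akr1a1 and Gpd2 lie between -0.059 and 0.20.

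In the list of fructose entry and breakdown 11 genes besides Khk were measured, of which 8 were higher and 3 lower at 4 h than at 20 min (median 0.13). Slc2a5 was the 1 called, by 1.97 ± 0.14 (SE; limma adjusted p = 2.89e-05), and since its sign was used to choose the HF side, that sign is no result. Pfkl, the liver type phosphofructokinase, differed by 0.62 ± 0.15 (adjusted p = 0.116). Its arrays of the 2 times did not overlap, as for 6.54% of all features. Aldh9a1, an aldehyde dehydrogenase, differed by 0.32 ± 0.14 (adjusted p = 0.342). Tpi1, the isomerase that interconverts the triose phosphates from which Gpd1 draws, differed by -0.011 ± 0.13 between the times. Against the same RNA it differed by -0.32 ± 0.14 (adjusted p = 0.492) at 4 h and by -0.30 ± 0.15 (adjusted p = 0.801) at 20 min. Its mean ratio was -0.074 at 4 h, -0.063 at 20 min and 0.24 on the same-RNA arrays. At 4 h against the same RNA 9 of the 11 genes were higher. In that comparison 5, Tpi1 among them, had an unadjusted p below 0.05. The smallest p were those of Slc2a5 (difference 1.69), Pfkl (0.51 ± 0.17, adjusted p = 0.358) and Aldoc, an aldolase (0.39 ± 0.15, adjusted p = 0.446). Aldoc also differed from the same RNA by 0.25 at 20 min. At 20 min 4 of the 11 genes were higher than on the same-RNA arrays and 7 lower.

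Of the polyol path and the wider aldo-keto reductase list 11 genes besides Akr1b1 and Akr1a1 were measured. The 1 called between the times was Akr7a3, an aldehyde reductase, which was higher at 4 h by 0.75 ± 0.097 (SE; limma adjusted p = 0.00745). Against the same RNA it differed by 0.36 ± 0.11 at 4 h (adjusted p = 0.299) and by -0.39 ± 0.11 at 20 min (adjusted p = 0.801). Neither passed, so the step between the times lay on both sides of the same-RNA mean. Its 4 h and its 20 min arrays did not overlap the same-RNA arrays, as for 6.71% and 7.01% of all features. Between the times Akr1c14, a hydroxysteroid dehydrogenase, differed by 0.60 ± 0.15 (adjusted p = 0.122) and Cbr1, a carbonyl reductase, by 0.38 ± 0.10 (adjusted p = 0.130). Of the 11 genes 6 were higher and 5 lower at 4 h, with a median of 0.036. Sord, the sorbitol dehydrogenase that follows Akr1b1 in the polyol path, differed by -0.011 ± 0.16 between the times, by 0.17 at 4 h and by 0.18 at 20 min against the same RNA. Neither enzyme of the path from glucose to fructose was called in any comparison. Of all features 0.0641% were called at 4 h, 0.0427% at 20 min and 0.598% between the times, so this does not set them apart.

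Sorbitol made by Akr1b1 is also an osmolyte, and 10 genes of osmolyte handling were measured. Between the times 3 were higher and 7 lower at 4 h (median -0.20), and 0 were called. Sgk1, a kinase induced by cell shrinkage, differed by -0.33 ± 0.14 (SE; limma adjusted p = 0.334) and Slc5a3, the inositol transporter, by -0.32 ± 0.14 (adjusted p = 0.353). At 4 h Slc5a3 had a mean ratio of -0.63 and differed from the same-RNA arrays by -0.41 ± 0.15 (adjusted p = 0.413). Its 4 h arrays did not overlap the same-RNA arrays, as for 6.71% of all features. At 20 min 7 of the 10 genes were higher than on the same-RNA arrays (median 0.10).

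The genes whose ratios followed each enzyme most closely over the 9 arrays of HG against HF were found among 4155 others. Those arrays fall into 2 times, a step between which adds to likeness, and the values are a description. Gpd1 was most like Gss, which encodes glutathione synthetase (Pearson r = 0.95), Akr7a3 (0.94) and Atp1a4 (0.94). Khk was most like Rps15a (0.92), Il6st (0.92) and Hoxa4 (0.91). Gpd2, taken as the mean of its probes, was most like Nox1 (0.93), Cox4i1 (0.91) and Aldh7a1 (0.91). Akr1a1 was most like Cpb2 (0.99), Ppm1b (0.92) and C4bpa (0.92), and Akr1b1 like Dgkz (0.90), Scd2 (0.88) and Asns (0.88).

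Among the 5 enzymes themselves, Gpd1 and Khk had r = 0.69 over the 9 arrays (Spearman 0.82), but 0.041 within the 5 arrays at 4 h and 0.39 within the 4 at 20 min. For Gpd1 and Gpd2, the latter as the mean of its probes, these were 0.69 (Spearman 0.77), 0.40 and 0.66. The reductases Akr1b1 and Akr1a1 had r = -0.17 (Spearman -0.067). With 5 and 4 arrays the values within a time are imprecise. How much of the value over the 9 arrays came from the step between the times was not tested.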

How the data were processed

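Ratios of 4952 probes on 14 arrays, deposited by the authors on a log scale taken as log2, had 0 missing values. The sources used here name no scanner, background correction, normalization, log base or direction. Deposited column medians ran from -0.071 to 0.024. Without intensities no filter on dim probes was possible.

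Genes were named from the platform annotation, where 4426 probes have 1 symbol, 2 several and 524 none. The Entrez identifiers of the 5 genes were all found, with unchanged symbols, in the RefSeq gene table of the GRCr8 assembly. Each array was centred on its median and probes of 1 symbol were averaged. The functions lmFit and eBayes of limma 3.58.1 (R 4.3.3) were run in 1 fit of 12 arrays in 3 groups, with 9 residual and 2.84 prior degrees of freedom and Benjamini-Hochberg adjustment over 4682 features. Up to 3 genes of a list with the smallest p were named for a comparison. Sord, Gpam, Tpi1 and Got2 were named outside that rule after their values had been seen. The script was tested on simulated data. The genes, lists and tests were chosen with earlier results of these data known. The number of arrays limits the precision.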

Additional observations from a re-analysis of the deposited data

Results flagged for a closer look

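The change of Gpd1 between 4 h and 20 min (0.64, from means of 0.53 and -0.11) was singled out because the difference between the times itself passed the test. No array of the 5 genes stood apart from its group at 4 h or 20 min in Dixon's test (0 of 10 groups tested).

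Arrays outside the tests held values beyond the range of the same-RNA arrays for 4 of the 5 genes on array 6 and 1 of 5 on the primer array. Over all features 71.1% lay beyond that range on array 6 and 50.9% on the primer array, so these counts do not set the 5 genes apart. On array 6 the ratio was -0.54 for Gpd1, 0.48 for Akr1a1 and -0.015 for Khk, against same-RNA ranges of -0.080 to 0.15, -0.063 to 0.19 and -0.0058 to 0.096. Gpd2 read -0.31 there as the mean of its probes, against a range of -0.068 to 1.33. On the primer array, which has no tissue RNA named, Khk read -0.12. The spread of array 6 was more than that of the other arrays of HG against HF (SD 0.82 against 0.33 to 0.40), and its part in these values was not tested.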

How the results depend on the processing

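Of the 5 genes 0 were called at 4 h, 0 at 20 min and 1 between the times, against 3, 2 and 28 of all features. With the arrays scaled to 1 spread 0 features were called at 20 min and 16 between the times. With only the groups compared in the fit 0 were called at 20 min. Against 0, with no same-RNA arrays subtracted, 763 features were called at 4 h and 384 at 20 min, 1 of the 5 genes at 4 h (Gpd1, 0.53, limma adjusted p = 0.000435), and signs turned for Akr1b1 (-0.052 at 4 h and -0.23 at 20 min) and Gpd2 (0.029 at 4 h). With array 6 averaged in as deposited 0 features were called in each comparison and 0 of the 5 genes. With its sign turned 0 features were called at 20 min and 18 between the times, and with its sign turned about the same-RNA median 0 at 20 min. With each probe apart Gpd2 read 0.097 at 4 h (probe 4027) and -0.011 between the times (probe 6). With the replicate block 0 features were called at 20 min and 12 between the times, 0 of the 5 genes between the times (Gpd1 at 0.65, adjusted p = 0.122), and Akr1a1 read 0.059 there. Deviations of same-numbered 4 h and 20 min arrays correlated at -0.086 to 0.13, and 1 of 4 was closest to its own number. This cannot show whether the numbers pair the samples, because an effect shared by both channels can cancel in a ratio. The arrays are also few. With 1 array left out, features called ranged from 2 to 5 at 4 h, 0 to 4 at 20 min and 4 to 43 between the times, and genes of the 5 from 0 to 1 between the times. Signs then turned for Akr1a1 between the times (-0.12 to 0.059) without 4 h replicate 5 or 20 min replicate 1 (0.011), for Gpd2 at 4 h (-0.61 to 0.088) without the same-RNA array 1HG and for Akr1b1 at 20 min (-0.053 to 0.23) without 3HF. The cause of these changes was not tested. Khk and Gpd1 kept their direction in all 3 comparisons under each alternative run.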
